A study of Mus musculus with 36 samples.

Results

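Ribosomes are assembled in the nucleolus, and 51 protein-coding mouse genes of that assembly line were followed through muscle stem cell activation. They were chosen by name: symbols that begin with Nop, Nol, Utp or Rrp followed by a digit, symbols that begin with Polr1, and Fbl, Dkc1, Ncl, Npm1, Pes1, Bop1, Wdr12, Wdr43, Ddx21 and Nolc1. The rule reads names and no measured value, though it was set with earlier results of these data known. The 51 members stood among 55471 gene identifiers, of which 21897 were protein-coding, and all 51 passed the filter on low values in both expression tables. By role they comprised 5 subunits of RNA polymerase I, 20 proteins of the small subunit processome, 6 proteins of small nucleolar RNA particles (snoRNPs), 15 large subunit and spacer processing factors and 2 abundant nucleolar proteins. The remaining 3, Nol3, Nol4 and Nol4l, share the naming pattern but are not known as processing factors.

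In the nucleolus, RNA polymerase I transcribes a long precursor that carries 3 of the ribosomal RNAs. The small subunit processome folds and cleaves that precursor on the small subunit side, and the snoRNPs guide the modification of the ribosomal RNAs. A further set of factors, the PeBoW complex of Pes1, Bop1 and Wdr12 among them, matures the large subunit. Satellite cells are the resident stem cells of muscle: when quiescent they are small cells with little cytoplasm that enlarge and enter the cell cycle after injury, and many genes of this pathway are known targets of the transcription factor Myc.

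Satellite cells had been sorted from hindlimb muscle of C57BL/6 mice and profiled by bulk RNA-seq in 36 libraries, deposited as 2 tables that were fitted separately. In the first table, control mice carried Pax7-CreER;ROSA26YFP and knockout mice Pax7-CreER;ROSA26YFP;Drp1fl/fl. All of these animals were 3 months old, and per the design text both genotypes received tamoxifen, so that the Pax7-driven Cre acted in satellite cells and their descendants. The second table held young mice of 3 months and old mice of 24 months, both labelled WT with no reporter or tamoxifen stated for them. Resting cells (QSC) came from uninjured muscle by YFP. After cardiotoxin injection into tibialis anterior, quadriceps and gastrocnemius, cells were sorted as YFP+ at 1 day post injury (1 DPI) and as CD34-YFP+ at 3 DPI, per the design text. For the WT mice, the labels do not say how cells were sorted without that reporter. The first table held 3 control and 3 knockout QSC libraries, 4 and 4 at 1 DPI, and 3 and 4 at 3 DPI. The second held 3 libraries in each of young QSC, old QSC, young 1 DPI, old 1 DPI and old 3 DPI. The gate differs between 1 and 3 DPI, so gate and time cannot be told apart in that step. Nothing states whether libraries of a group came from separate animals or pools, so the p-values reflect library-to-library spread, which may be technical.

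The deposited values were TPM, transcript abundances scaled to gene length and to the library total, which keep no depth, so the depth behind each value is unknown. Dnm1l, the gene that encodes Drp1, had 30.9 to 39.5 TPM in control QSC and 32.7 to 43.4 TPM in the libraries labelled knockout QSC. It had 43.8 to 52.9 and 29.0 to 41.0 TPM at 1 DPI, and 61.5 to 69.8 and 22.2 to 37.5 TPM at 3 DPI. The ranges of the whole gene thus did not overlap between genotypes in the injured libraries and did in the resting ones. Knockout minus control was -1.21 at 3 DPI (limma adjusted p = 0.00115). At 1 DPI it was -0.49 and was not called (limma adjusted p = 0.699). Of 11 satellite cell and myoblast markers, 11 were above 0 in every library of the QSC and 1 DPI groups, and their summed level was 6630 to 8009 TPM in control QSC and 1652 to 2378 TPM in control 1 DPI. Of the markers of other cells, the summed macrophage list of 12 genes went from 60.4 to 111 TPM in control QSC to 329 to 4087 TPM in control 1 DPI, and the neutrophil list of 7 genes from 7.21 to 13.7 TPM to 338 to 4431 TPM. Ly6g, a defining neutrophil marker, was at 0 in 3 of 3 control QSC and 3 of 4 control 1 DPI libraries. The erythroid list of 6 genes summed to 113 to 236 TPM in control QSC, 187 to 1785 TPM at 1 DPI and 75.3 to 125 TPM at 3 DPI. Lists of the remaining cell types were lower or overlapped at 1 DPI: the fibro-adipogenic list of 8 genes summed to 713 to 935, 184 to 634 and 89.5 to 118 TPM in control QSC, 1 DPI and 3 DPI, the myofibre list of 10 genes to 169 to 289, 91.4 to 273 and 833 to 1030 TPM, and the endothelial list of 8 genes to 32.0 to 51.8, 20.7 to 162 and 5.79 to 14.0 TPM. Control 1 DPI replicates 1 and 3, knockout 1 DPI replicate 2, knockout QSC replicate 3 and old QSC replicate 1 stood apart from their groups in such lists, and results are also given without these 5 libraries.

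The promoters of 5 members are shown because these genes moved in opposite directions on the first day, and 3 of the 5 hold the E-box CACGTG that Myc and its partner Max are known to bind. Each window runs from 250 bases before to 50 bases after the RefSeq transcript start in GRCm38.p6, written in lower case with the E-box in capitals. The windows are Dkc1 (chrX:75095604-75095903, plus strand), Nop58 (chr1:59684756-59685055, plus strand), Pes1 (chr11:3963725-3964024, plus strand), Wdr43 (chr17:71615965-71616264, plus strand) and Utp4 (chr8:106893390-106893689, plus strand). Dkc1 and Nop58 hold no E-box in this window. Counting the transcript start as the first base, the E-box begins at base 3 in Pes1, base 16 in Utp4 and base 18 in Wdr43.
Dkc1: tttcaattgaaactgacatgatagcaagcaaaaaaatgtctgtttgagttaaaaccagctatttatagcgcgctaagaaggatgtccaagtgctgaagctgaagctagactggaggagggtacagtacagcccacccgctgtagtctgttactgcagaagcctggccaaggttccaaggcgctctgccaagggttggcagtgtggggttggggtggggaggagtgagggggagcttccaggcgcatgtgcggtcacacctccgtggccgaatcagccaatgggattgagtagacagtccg
Nop58: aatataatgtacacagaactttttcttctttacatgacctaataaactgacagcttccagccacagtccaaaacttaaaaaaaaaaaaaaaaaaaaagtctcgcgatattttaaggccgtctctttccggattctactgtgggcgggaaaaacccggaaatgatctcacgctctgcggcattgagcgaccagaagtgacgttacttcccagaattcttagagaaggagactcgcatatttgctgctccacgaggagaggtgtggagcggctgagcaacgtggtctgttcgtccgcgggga
Pes1: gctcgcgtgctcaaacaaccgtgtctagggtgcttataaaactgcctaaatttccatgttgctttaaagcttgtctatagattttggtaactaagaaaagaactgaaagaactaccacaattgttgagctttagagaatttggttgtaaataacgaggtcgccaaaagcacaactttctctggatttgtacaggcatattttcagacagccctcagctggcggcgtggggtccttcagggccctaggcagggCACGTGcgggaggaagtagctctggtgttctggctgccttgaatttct
Wdr43: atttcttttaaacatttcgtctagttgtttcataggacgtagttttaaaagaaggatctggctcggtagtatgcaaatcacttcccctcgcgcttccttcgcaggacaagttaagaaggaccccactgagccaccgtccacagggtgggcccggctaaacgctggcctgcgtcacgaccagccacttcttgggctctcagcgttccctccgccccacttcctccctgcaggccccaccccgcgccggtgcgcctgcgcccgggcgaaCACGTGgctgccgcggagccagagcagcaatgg
Utp4: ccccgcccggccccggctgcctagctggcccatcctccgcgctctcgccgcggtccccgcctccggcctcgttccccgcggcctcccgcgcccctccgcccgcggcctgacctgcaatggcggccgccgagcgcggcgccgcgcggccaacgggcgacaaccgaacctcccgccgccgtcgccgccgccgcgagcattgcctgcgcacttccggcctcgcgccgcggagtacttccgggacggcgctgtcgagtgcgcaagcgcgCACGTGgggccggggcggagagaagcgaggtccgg

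RefSeq windows were found for 40 of the 51 members, 47 windows in all, none on chromosome 18. The E-box, which reads CACGTG on both strands, stood in 9 of 47 member windows, or 19.1%, against 9.64% of 13266 windows of protein-coding genes kept in the first table and 7.15% of all 32851 windows of that length. The ETS core CGGAAG, searched on both strands, stood in 51.1% of member windows against 29.1% of kept and 16.9% of all windows. The palindrome TCGCGA stood in 10.6% against 4.58% and 2.50%; none of these motifs overlaps another in its letters as searched, though matches may lie side by side. Split by the first-day change in control cells, the E-box was in 3 of 14 windows of members that rose, 3 of 9 windows of members that fell and 3 of 24 windows of members that were not called. These matches describe letters in a window and say nothing of binding.

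In resting control cells, the members together made up 0.995% ± 0.107 (SD, n = 3) of all TPM. The order of levels was led by the box C/D snoRNP scaffold proteins Nop58, at 1923 ± 206 TPM, and Nop56, at 1681 ± 249 TPM (SD, n = 3), followed by Npm1 at 1179.7 ± 133 and Ncl at 918 ± 110.2 TPM. Nop58 and Nop56 overlapped in range, at 1686 to 2059 and 1498 to 1964 TPM. Below these 4 genes came Nop53 at 394 ± 33.5, Wdr43 at 312 ± 44.4 and Nolc1 at 286 ± 37.6 TPM. The 3 lowest members were Nol3 at 2.66 ± 0.550, Nol6 at 2.54 ± 0.663 and Nol4l at 1.81 ± 0.971 TPM. The members' share of TPM was 0.964% ± 0.106 (n = 4) in control cells at 1 DPI and 0.759% ± 0.0573 (n = 3) at 3 DPI. Summed TPM follow the few highest genes. The mean log2(TPM + 1) over the 51 members, which weights them equally, was 5.97 ± 0.15 in control QSC, 6.13 ± 0.16 at 1 DPI and 5.79 ± 0.11 at 3 DPI.

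**Figure D1:**
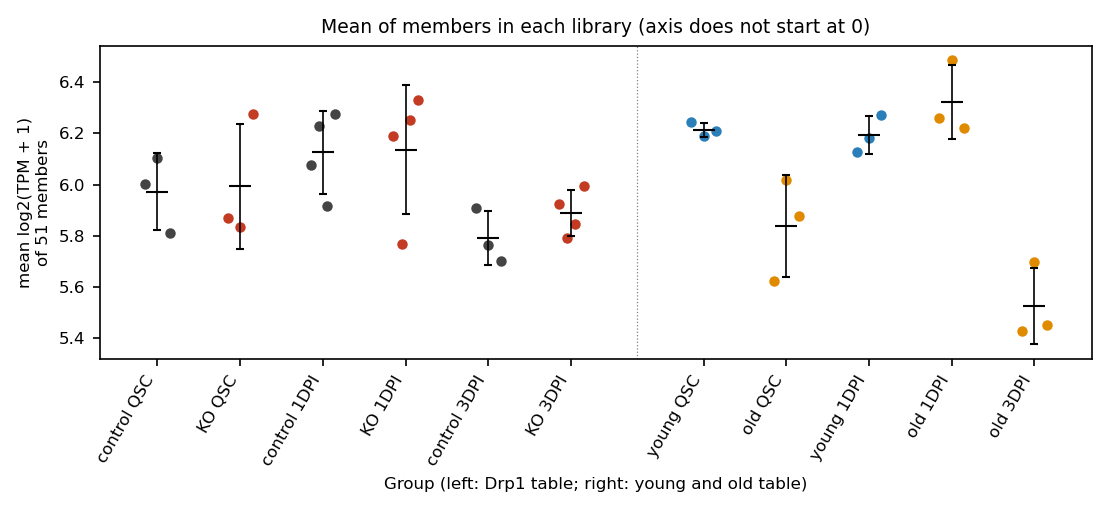
Mean log2(TPM + 1) of the 51 members in each library (points), by group on the horizontal axis, with the group mean and SD (bars); the vertical axis does not start at 0, and the dotted line separates the 2 tables. Control libraries span 5.81 to 6.10 at rest and 5.70 to 5.91 at 3 DPI, and old libraries go from 5.62 to 6.02 at rest to 6.22 to 6.49 at 1 DPI.

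Between rest and 1 DPI, control cells did not change the set in 1 direction. Of 51 members, 17 rose and 10 fell by limma at an adjusted p of at most 0.05, against 23.3% of all 18343 genes tested called higher and 12.6% called lower. The median change of the members was 0.08 on the log2(TPM + 1) scale, beside 0.15 over all genes. In bulk RNA, fewer cells of a type and less RNA per cell cannot be told apart, and a TPM is a share of the library rather than an amount per cell. Median-of-ratios scaling moved the median of all genes by -0.21. Under it 9 members were called higher and 16 lower, beside 3248 and 3727 of all 18343 genes. All 10 lower calls and 9 of the 17 higher calls were kept. A further fit left out the libraries that stood apart. Among them were control 1 DPI replicates 1 and 3, in which macrophage and neutrophil markers were high. That fit called 18 members higher and 8 lower, with a median of 0.29 beside 0.14 over all genes. Its all-gene shares are not given here.

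**Figure D2:**
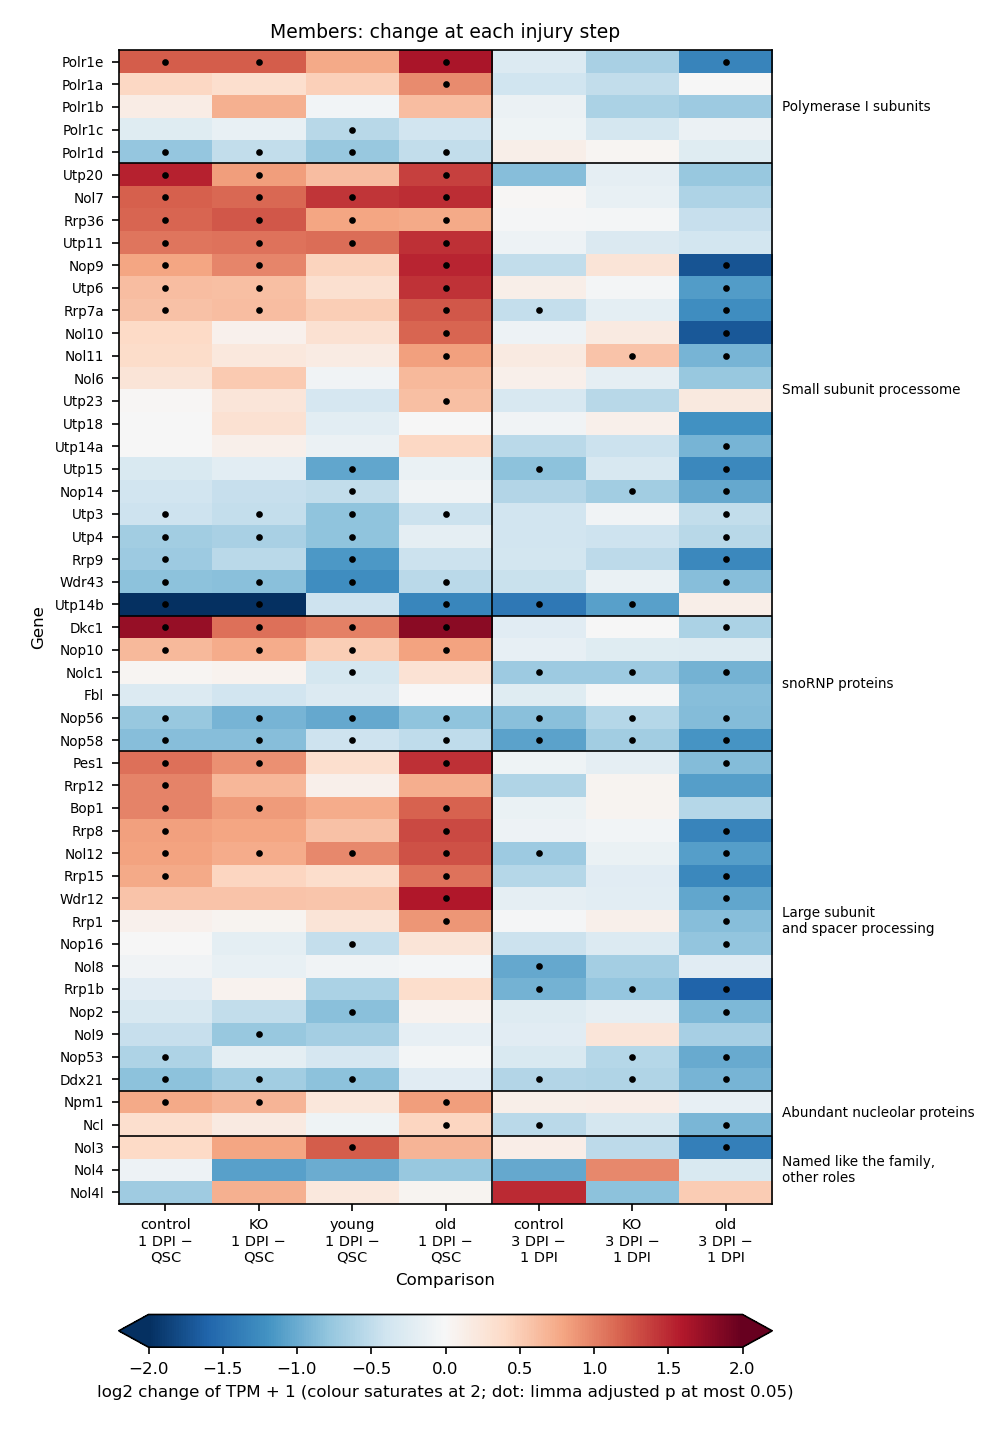
Log2 change of each of the 51 members (rows, grouped by role) in 7 steps between time points (columns); colour gives the log2(TPM + 1) difference and saturates at 2, and a dot marks an adjusted p of at most 0.05 in limma. Rows that are higher on the first day stand beside rows that are lower within the same role, and the 1 to 3 DPI columns carry mostly lower calls.

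Of the 6 snoRNP proteins, Nop56 and Nop58 fell and Dkc1 and Nop10 rose in all 4 first-day steps, while Fbl was called in none and Nolc1 in 1. Nop56 (ENSMUSG00000027405, chromosome 2, 130274430 to 130279313, plus strand, GRCm38) and Nop58 (ENSMUSG00000026020, chromosome 1, 59684971 to 59719044, plus strand) are the paired scaffold proteins of the box C/D particles, which guide 2′-O-methylation of ribosomal RNA. Nop56 stood at 1581, 1964 and 1498 TPM in control QSC, 1105, 1018, 822 and 1013 TPM at 1 DPI and 699.9, 491 and 479.6 TPM at 3 DPI. All resting libraries were above all 1 DPI libraries, and all 1 DPI libraries above all 3 DPI libraries. The first-day change was -0.76 (SE 0.20, limma adjusted p = 0.00528). In knockout cells, Nop56 was 1356, 1465 and 2047 TPM at rest and 1043, 547, 837 and 1031 TPM at 1 DPI, again with no overlap. Its change was -0.93 in knockout, -1.02 in young and -0.81 in old cells, with limma adjusted p of 0.00125, 2.27e-05 and 0.000123. A stretch of 39.2% of the Nop56 transcript is at least 95% identical to processed pseudogenes or other genes, whose listed TPM came to 0 to 10.3% of the combined value, so its level is somewhat uncertain.

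Nop58 followed the same course, from 2024, 2059 and 1686 TPM in control QSC to 983, 1171, 894 and 1235 TPM at 1 DPI and 545, 501 and 469.9 TPM at 3 DPI. No library of one time overlapped those of the next. The first-day change was -0.85 (SE 0.17, limma adjusted p = 0.000412) in control cells, -0.86 in knockout, -0.42 in young and -0.50 in old cells, called in all 4. Fbl, fibrillarin, the methyltransferase of the same particles, was called in none of the 4: it stood at 234 to 299 TPM in control QSC and 172 to 239.8 TPM at 1 DPI, a difference of -0.27 (SE 0.16, limma adjusted p = 0.198). Under median-of-ratios scaling Fbl was called lower in control and knockout cells. Of the Fbl transcript, 83.3% is shared with near-identical sequence, chiefly the pseudogene Gm5812, and partners took 12.1% to 26.9% of the combined TPM, so Fbl values are uncertain. Nolc1, a snoRNP chaperone also called Nopp140, differed by 0.04 in control, 0.07 in knockout, -0.35 in young and 0.29 in old cells, and the fall in young cells was the only call (limma adjusted p = 0.0273).

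Both members of the box H/ACA particles, which guide pseudouridylation, rose. Dkc1 (ENSMUSG00000031403, chromosome X, 75095854 to 75109777, plus strand), the pseudouridine synthase dyskerin, stood at 127, 137 and 93.2 TPM in control QSC and 385, 473, 368 and 371 TPM at 1 DPI. All 1 DPI libraries were far above all resting ones. Its change of 1.75 (SE 0.22, limma adjusted p = 3.68e-06) was the largest rise among the members in control cells. In knockout cells Dkc1 was 123, 129.5 and 242 TPM at rest and 425, 224, 350.3 and 393 TPM at 1 DPI. There the groups touched: the third resting library, in which mitosis markers also stood apart, was above the second 1 DPI library, in which macrophage markers summed to 8254 TPM. The knockout change was 1.10 (SE 0.22, limma adjusted p = 0.000714). Young cells went from 191, 189 and 165 to 322, 396 and 377 TPM and old cells from 87.7, 125 and 165 to 401, 407 and 491 TPM. The old resting libraries ranged from well under the young ones up to the lowest of them, and no injured library of either age overlapped a resting one. The changes were 1.00 (SE 0.20, limma adjusted p = 0.00167) in young and 1.81 (SE 0.20, limma adjusted p = 1.12e-05) in old cells. Nop10, a small core protein of the same particles, rose by 0.64 in control, 0.74 in knockout, 0.49 in young and 0.80 in old cells, with limma adjusted p of 0.00388, 0.00142, 0.00655 and 0.000145.

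**Figure D3:**
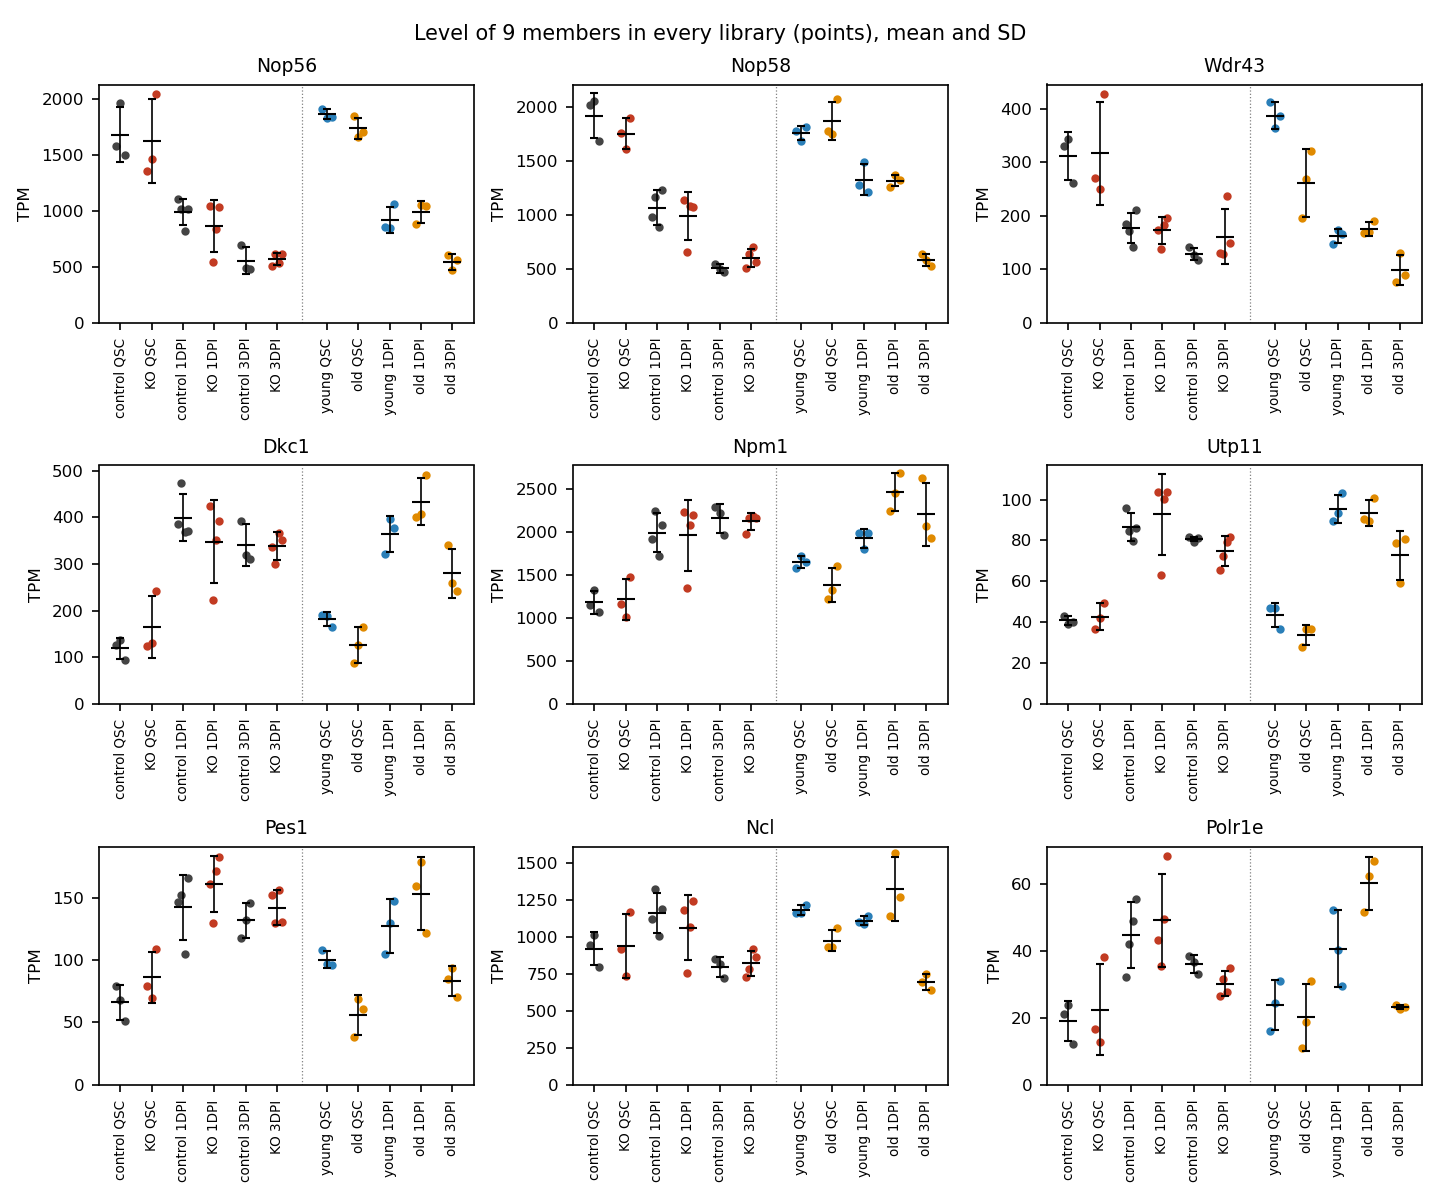
TPM in every library (points) with group mean and SD (bars) for 9 members; each panel has its own vertical axis in TPM, groups are on the horizontal axis, and the dotted line separates the 2 tables. Nop56, Nop58 and Wdr43 are highest at rest, whereas Dkc1, Npm1, Utp11, Pes1 and Polr1e are lowest at rest.

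The small subunit processome held members that moved far in both directions: in control cells 7 of its 20 rose and 5 fell. Wdr43 (ENSMUSG00000041057, chromosome 17, 71615895 to 71659031, plus strand), whose human counterpart belongs to the subcomplex that binds the nascent precursor first, stood at 329.9, 344 and 261 TPM in control QSC and 184, 172, 142 and 211 TPM at 1 DPI. All resting libraries were higher than all injured ones, and the change was -0.81 (SE 0.21, limma adjusted p = 0.00465). It fell in the other 3 first-day steps too, by 0.84 in knockout, 1.25 in young and 0.55 in old cells on the log2 scale. The call in old cells was lost in 7 of 13 alternative analyses, and the knockout call in 1 of 14. Utp4 (ENSMUSG00000041438, chromosome 8, 106893636 to 106923088, plus strand), of the same subcomplex, differed by -0.70, -0.64, -0.80 and -0.18 in control, knockout, young and old cells, and only the old difference was not called. Utp3, also known as Sas10, fell in all 4 steps, by 0.80 in young cells and by 0.41 to 0.48 in the others, and its old call was lost in 8 of 13 alternatives. Rrp9, the U3 snoRNP-specific protein, fell by 0.73 in control and 1.15 in young cells, while its differences of -0.54 in knockout and -0.44 in old cells were not called.

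Utp11, Nol7, Rrp36 and Utp20 of the same machinery were higher after injury. Utp11 stood at 43.2, 39.2 and 40.2 TPM in control QSC and 96.1, 84.6, 79.9 and 86.1 TPM at 1 DPI. The groups did not overlap, and the change was 1.06 (SE 0.16, limma adjusted p = 2.34e-05). It rose by 1.08, 1.12 and 1.45 in knockout, young and old cells. Nol7 rose by 1.20, 1.15, 1.43 and 1.48 in control, knockout, young and old cells, and Rrp36 by 1.16, 1.24, 0.78 and 0.76. The young Rrp36 call was lost in 8 of 12 alternatives. Utp20, a large scaffold of the late processome, rose by 1.53 in control, 0.83 in knockout and 1.36 in old cells, and differed by 0.62 (SE 0.33, limma adjusted p = 0.171) in young cells. Utp14b, a retrogene copy of Utp14a known in mice for its role in spermatogenesis, had the largest fall among the members in control cells. It went from 17.4, 28.4 and 20.3 TPM in control QSC to 2.58, 5.56, 2.05 and 3.51 TPM at 1 DPI and 0.899, 0.280 and 0.619 TPM at 3 DPI, a first-day change of -2.41 (SE 0.41, limma adjusted p = 9.36e-05). All resting libraries were above all injured ones. Utp14b overlaps Acsl3 on the same strand and shares exon bases with it, so reads of the 2 genes may have been split between them.

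Among large subunit and spacer processing factors, 6 of 15 rose and 2 fell in control cells. Pes1 (ENSMUSG00000020430, chromosome 11, 3963975 to 3980004, plus strand) stood at 79.3, 67.9 and 50.9 TPM in control QSC and 146, 152, 105 and 165 TPM at 1 DPI, with no overlap. Pes1 rose by 1.10 (SE 0.18, limma adjusted p = 8.73e-05) in control cells, and Bop1 by 0.99 (SE 0.22, limma adjusted p = 0.00138). Wdr12, the remaining PeBoW protein, differed by 0.57 (SE 0.27, limma adjusted p = 0.105), which missed the threshold. In old cells all 3 rose: Pes1 by 1.46, Bop1 by 1.17 and Wdr12 by 1.60, with limma adjusted p of 0.00015, 0.00473 and 3.31e-05. In young cells none of the 3 was called, with differences of 0.33, 0.74 and 0.55. Nol12, an exonuclease-related spacer processing factor, rose in all 4 steps, by 0.75 to 1.28. Ddx21, a nucleolar RNA helicase, fell by 0.82 in control, 0.69 in knockout and 0.82 in young cells, and differed by -0.23 (SE 0.14, limma adjusted p = 0.215) in old cells. Nop2, a ribosomal RNA methyltransferase, was called in young cells, at -0.83 (SE 0.24, limma adjusted p = 0.015), and differed by -0.32, -0.50 and 0.07 in control, knockout and old cells.

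Of the polymerase I subunits, Polr1e and Polr1d moved in opposite directions. Polr1e, a subunit of the initiation and elongation module of polymerase I, stood at 21.1, 23.7 and 12.3 TPM in control QSC and 32.3, 42.0, 48.8 and 55.3 TPM at 1 DPI. Every injured library was above every resting one, and the change was 1.21 (SE 0.30, limma adjusted p = 0.00339). It also rose by 1.20 in knockout and 1.64 in old cells, and differed by 0.76 (SE 0.33, limma adjusted p = 0.0976) in young cells. Polr1d, which is shared with RNA polymerase III, fell in all 4 steps, by 0.78, 0.49, 0.76 and 0.50 in control, knockout, young and old cells. Polr1a, the largest catalytic subunit, was called only in old cells, at 0.94 (SE 0.26, limma adjusted p = 0.0129). Its differences in control, knockout and young cells were 0.41, 0.34 and 0.48. Polr1b, the second catalytic subunit, was called in no first-day step, with differences from -0.05 in young to 0.71 in knockout cells. Polr1c, also shared with polymerase III, was called lower in young cells at -0.55 (SE 0.16, limma adjusted p = 0.0162) and in none of the other 3.

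Npm1 (ENSMUSG00000057113, chromosome 11, 33152287 to 33163206, minus strand), nucleophosmin, which forms the granular outer layer of the nucleolus, stood at 1149, 1325 and 1064 TPM in control QSC, 1915, 2243, 1717 and 2078 TPM at 1 DPI and 2287, 2216 and 1967 TPM at 3 DPI. All injured libraries were above all resting ones. The first-day rise was 0.75 (SE 0.16, limma adjusted p = 0.000796) in control, 0.68 in knockout and 0.84 in old cells, and the difference of 0.22 (SE 0.13, limma adjusted p = 0.201) in young cells was not called. Under median-of-ratios scaling the knockout and old values were both 0.34 and neither was called (limma adjusted p = 0.0582 and 0.207). Ncl, nucleolin, which binds nascent precursor RNA, stood at 942, 1014 and 798 TPM in control QSC and 1120.5, 1323, 1003 and 1189 TPM at 1 DPI, with overlap. Its difference in control cells was 0.34 (SE 0.17, limma adjusted p = 0.13). Ncl was called only in old cells, at 0.43 (SE 0.11, limma adjusted p = 0.00854), and under median-of-ratios scaling that value turned to -0.065 (limma adjusted p = 0.795). Of the 3 members with other roles, Nol3, an apoptosis repressor, was called higher in young cells at 1.22 (SE 0.36, limma adjusted p = 0.0185), and 48.2% of its transcript is shared with an antisense gene. Nol4 and Nol4l were called in no first-day step.

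Members called in control cells kept their direction in the other 3 first-day steps, and the rest leaned apart between young and old cells. Knockout cells had 14 members called higher and 9 lower, against 21.6% and 10.6% of all genes. Young cells had 7 higher and 14 lower, against 23.2% and 8.79%, and old cells had 23 higher and 6 lower, against 24.8% and 7.72%. The members' median change was 0.22 in knockout, -0.06 in young and 0.61 in old cells, beside 0.16, 0.24 and 0.27 over all genes. Median-of-ratios scaling gave 7 higher and 16 lower in knockout, 2 and 18 in young and 8 and 10 in old cells. Of all 18343 genes, that scaling called 2943 higher and 3254 lower in knockout cells. Its all-gene counts for young and old cells are not given here. Without the libraries that stood apart, knockout cells had 18 higher and 5 lower and old cells 21 and 6. The members' medians were then 0.49 and 0.40, beside 0.15 and 0.32 over all genes, and the all-gene shares are not given here. The young counts were 4 higher without 1 DPI replicate 7 and 9 lower without 1 DPI replicate 5, and 3 members were called lower in old cells without any one of QSC replicates 2 and 3 and 1 DPI replicates 1 and 3. Dkc1, Nol12, Nol7, Nop10, Rrp36 and Utp11 were called higher in 4 of 4 steps, and Nop56, Nop58, Polr1d, Utp3 and Wdr43 lower in 4 of 4. Under median-of-ratios scaling all 5 of those lower calls held in the 4 steps, and of the higher calls those of Nol7 and Utp11 did. Of these calls, those of Rrp36 and Nol12 in young cells were lost in 8 and 5 of 12 alternatives, and those of Utp3 and Wdr43 in old cells in 8 and 7 of 13. The knockout call of Wdr43 was lost without the libraries that stood apart (limma adjusted p = 0.086). The 17 members that rose in control cells all had values above 0 in knockout, young and old cells, where 14, 6 and 16 were called, and the 10 that fell all had values below 0, where 8, 8 and 6 were called. Of the 24 members not called in control cells, 15 were above 0 and 9 below in knockout cells. In young cells 7 of the 24 were above 0 and 17 below, and in old cells 17 were above and 7 below. Among these 24, 1 was called higher and 6 lower in young cells, and 7 higher and 0 lower in old cells. No member was called higher in one step and lower in another, and 9 members were called in no first-day step. Across the 51 members, the control change had a Pearson r of 0.902 with the knockout change, 0.785 with the young and 0.904 with the old change, in libraries that the steps do not share. These r describe genes, which are not independent replicates.

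**Figure D4:**
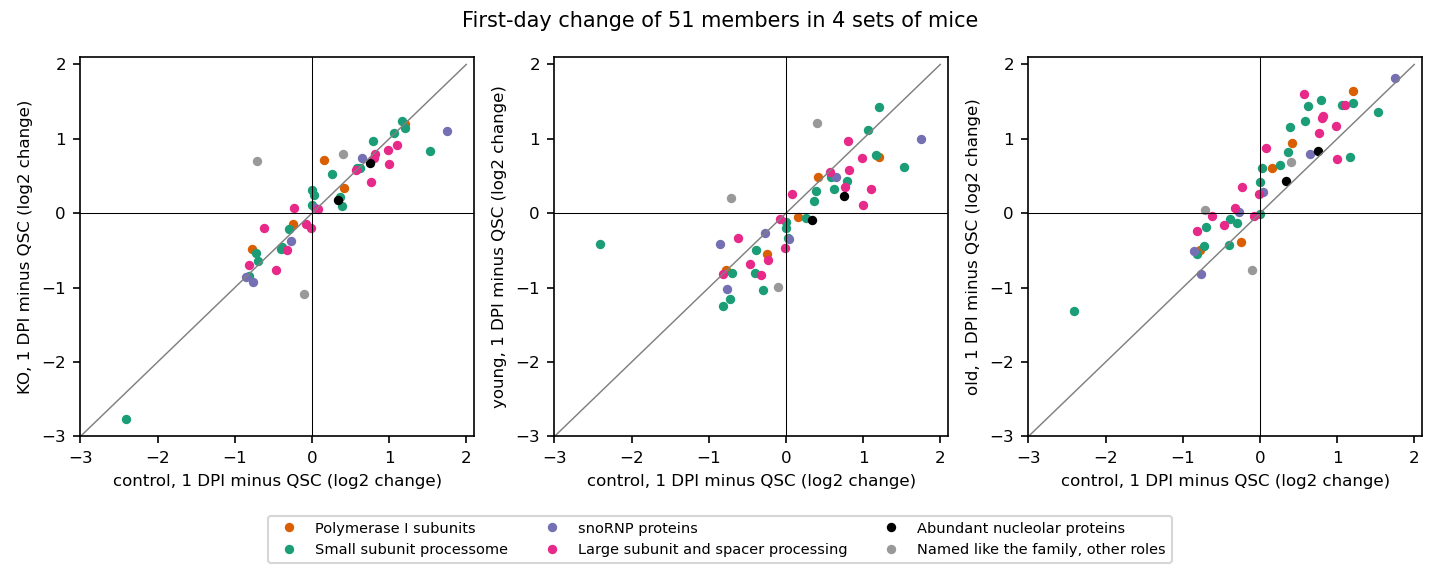
First-day change (1 DPI minus QSC, log2(TPM + 1) scale) of each of the 51 members in control cells on the horizontal axis against knockout, young and old cells on the vertical axis of the 3 panels. Each point is 1 member; the points lie along a rising line, with r of 0.902, 0.785 and 0.904, and in old cells most lie above the line of equal change.

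Over the same day, Myc fell. Its level was 806 ± 107 TPM (SD, n = 3) in control QSC, 189.7 ± 27.2 TPM (n = 4) at 1 DPI and 75.6 ± 3.58 TPM (n = 3) at 3 DPI, and its libraries at one time did not overlap those at the next. The first-day change was -2.08 (SE 0.17, limma adjusted p = 1.32e-08) in control, -2.20 in knockout, -2.07 in young and -2.20 in old cells. All 17 mitosis markers were called higher in control, knockout and young cells and 15 in old cells. Their summed level was 24.8 to 31.0 TPM in control QSC, 966 to 1719 TPM in control 1 DPI and 174 to 509 TPM in old 1 DPI. The part of cell cycle entry in the members' changes was not tested.

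Other genes of the pathway, taken from lists of factors outside the naming rule, were called in both directions. Of 112 such factors, 39 rose and 14 fell in control cells, 37 and 14 in knockout, 23 and 31 in young and 42 and 5 in old cells, with medians of 0.23, 0.17, -0.16 and 0.37. In control cells that is 34.8% higher and 12.5% lower, beside 23.3% and 12.6% of all genes, and in young cells 20.5% and 27.7%, beside 23.2% and 8.79%. In knockout cells the shares were 33.0% and 12.5%, beside 21.6% and 10.6%, and in old cells 37.5% and 4.46%, beside 24.8% and 7.72%. Of 11 further snoRNP factors, 6 rose in control cells, and the examples of smallest p were assembly factors: Ruvbl2 at 2.66 (SE 0.24, limma adjusted p = 5.25e-08), Znhit6 at 3.03 and Ruvbl1 at 1.45. Among 12 further polymerase I factors 6 rose and 1 fell, with Ttf1, the transcription terminator, at 1.93, Tcof1, the treacle protein, at 1.41 and Mybbp1a at 1.17. Of 27 further processome factors 9 rose and 1 fell, including Aatf at 1.98, Bms1 at 1.42 and Fcf1 at 1.11. Of 45 large subunit assembly factors 12 (26.7%) rose and 7 (15.6%) fell, shares near those of all genes, and Pum3 and Wdr18 rose by 1.25 and 1.17. Among 17 cytoplasmic maturation and export factors 6 rose and 5 fell. Xpo1, the exportin that carries pre-ribosomes out of the nucleus, rose by 2.93 and Pno1 by 1.19. Sbds, a large subunit maturation factor, fell by 1.51. Cytosolic ribosomal protein genes, 77 in number, had 27 called higher and 2 lower in control, 22 higher in knockout, 5 and 12 in young and 15 and 5 in old cells, with medians of 0.21, 0.25, -0.10 and 0.19. The control shares were 35.1% and 2.60%.

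From 1 to 3 DPI members were called lower more often than higher. In control cells 11 fell and none rose by limma, against 8.25% of all genes called lower and 5.09% called higher, with a median of -0.31 beside -0.13 over all genes. At an unadjusted p under 0.05, 18 members were lower and 1 higher, against 16.7% and 9.65% of all genes. The largest falls were Utp14b at -1.43 (SE 0.41, limma adjusted p = 0.0247), Nop58 at -1.07 (SE 0.17, limma adjusted p = 0.000187) and Nol8, a large subunit factor, at -1.02 (SE 0.26, limma adjusted p = 0.0117). Rrp1b, Nop56 and Utp15 fell by 0.94, 0.84 and 0.82. Nol12, Nolc1, Ddx21, Ncl and Rrp7a fell by 0.73, 0.72, 0.58, 0.54 and 0.48. Rrp7a shares 32.9% of its transcript with near copies that took 32.9% to 44.9% of the combined TPM. Dkc1, Npm1, Pes1 and Bop1 were not called, with differences of -0.23, 0.12, -0.09 and -0.13. The Ncl and Rrp1b calls were lost in 8 and 7 of 14 alternatives. The count rests on single libraries: without control 3 DPI replicate 3 it was 2 and without replicate 2 it was 3. It was 7, 5 and 7 without control 1 DPI replicates 1, 2 and 4, whereas without the 1 DPI libraries that stood apart it was 15. The all-gene shares of these fits are not given here.

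Knockout cells had 8 members called lower and 1 higher in that step, against 12.1% and 6.8% of all genes, with a median of -0.21 beside -0.17 over all genes. Nop58, Nop56, Nolc1, Ddx21, Rrp1b and Utp14b were called lower in both genotypes, and Nop14 and Nop53 in knockout cells as well. The knockout calls of Utp14b, Rrp1b and Nop56 were lost in 12, 10 and 9 of 15 alternatives. The change of Nolc1 in knockout cells was -0.73 (SE 0.18, limma adjusted p = 0.00743). Nol11, of the precursor-binding subcomplex, was the member called higher, at 0.57 (SE 0.20, limma adjusted p = 0.0497), a call lost in 11 of 15 alternatives. Without knockout 1 DPI replicate 2, the library with the highest macrophage sum, 14 members were called lower, and without replicates 1, 3 and 4 of that group 4, 5 and 5 were. All-gene shares are not given here for these fits. Across the 51 members the control and knockout changes of this step had a Pearson r of 0.193.

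In old cells 30 of 51 members fell from 1 to 3 DPI and 0 rose by limma, against 11.8% and 5.74% of all genes. At an unadjusted p under 0.05, 35 were lower and none higher, against 21.6% and 9.24% of all genes. The median was -0.86 beside -0.24 over all genes. By role, 12 of 20 processome proteins, 11 of 15 large subunit factors, 4 of 6 snoRNP proteins and 1 of 5 polymerase I subunits fell. The largest falls were Nop9 at -1.73 (SE 0.55, limma adjusted p = 0.0427), Nol10 at -1.70 (SE 0.30, limma adjusted p = 0.00183) and Rrp1b at -1.59 (SE 0.30, limma adjusted p = 0.00248). The Nop9 call was lost in 7 of 12 alternatives, where its change ran from -2.12 to -1.08. Nop58 fell by 1.18, Ncl by 0.92, Nolc1 by 0.95, Ddx21 by 0.92, Nop2 by 0.90 and Pes1 by 0.87. Ncl stood at 1141, 1562 and 1269.7 TPM in old cells at 1 DPI and 696, 749 and 642 TPM at 3 DPI, with no overlap. Of the 112 factors outside the rule, 61 (54.5%) were called lower in the same step, with a median of -0.77. Cytosolic ribosomal protein genes had 1 of 77 called lower and a median of -0.08. The summed macrophage list was 198 to 612 TPM in old cells at 1 DPI and 5632 to 7220 TPM at 3 DPI, 10 of its 12 genes were called higher, and satellite cell markers summed to 1931 to 3044 and 1366 to 1855 TPM. Their part in the members' fall was not tested. Median-of-ratios scaling moved the median of all genes in this step by 0.25 and left 12 members called lower. The members' median was then -0.52, beside 0.01 over all genes. All-gene counts under that scaling are not given here for this step, so the 12 cannot be set beside a share. No library of the second table is labelled young 3 DPI. The 1 to 3 DPI step of the control cells, also from mice of 3 months, belongs to the first table, which was fitted separately.

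Compared with rest, control cells at 3 DPI had 10 members higher and 19 lower, against 23.5% and 19.8% of all genes, and a median of 0.01 beside 0.00 over all genes. Old cells had 9 higher and 19 lower, against 23.3% and 15.3%, and a median of -0.38 beside 0.08. Dkc1 was 1.52 (SE 0.24, limma adjusted p = 3.07e-05) in control and 1.18 (SE 0.20, limma adjusted p = 0.000374) in old cells. Npm1 was 0.87 and 0.67, Pes1 1.01 and 0.59, and Utp11 0.96 and 1.09, all called higher. Among those lower in both were Nop58 at -1.92 and -1.68, Nop56 at -1.60 and -1.67, Ddx21 at -1.40 and -1.16, and Wdr43 at -1.26 and -1.40. Fbl was called lower in control cells at -0.51 (SE 0.17, limma adjusted p = 0.019). The old Pes1 and Wdr12 calls were lost in 10 and 8 of 13 alternatives.

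Knockout and control cells were compared at each time point, and no member was called. At rest, where Dnm1l itself did not separate the genotypes, 0 members were called by limma, where 0.213% of all genes were, and 0 at an unadjusted p under 0.05, against 4.74% of all genes, with a median difference of 0.01. At 1 DPI 0 members were called, against 0.278% of all genes, 1 had an unadjusted p under 0.05, against 5.25% of all genes, and the median was -0.01. At 3 DPI 0 members were called, against 0.283% of all genes, 3 had an unadjusted p under 0.05, against 5.43% of all genes, and the median was 0.08. Pes1 and Dkc1 had the smallest p at rest. Pes1 stood at 79.6, 69.7 and 109 TPM in knockout QSC and differed by 0.37 (SE 0.20, limma adjusted p = 1.0) from control cells, and Dkc1 differed by 0.42 (SE 0.24, limma adjusted p = 1.0). Nol4l had the smallest p at 1 DPI, at 1.51 (SE 0.46, limma adjusted p = 0.542), with levels of 1.58, 0.635, 0 and 0.744 TPM in control and 5.98, 1.19, 4.44 and 4.86 TPM in knockout libraries. Nol12 and Utp15 led at 3 DPI, at 0.50 (SE 0.20, limma adjusted p = 0.732) and 0.58 (SE 0.24, limma adjusted p = 0.778). For Nop58 the differences were -0.13, -0.13 and 0.25 at rest, 1 and 3 DPI, for Ncl 0.01, -0.15 and 0.05, for Npm1 0.03, -0.04 and -0.02, and for Fbl -0.04, -0.15 and 0.05. Among the 77 ribosomal protein genes, Rps7 was called lower in knockout cells, by 0.71 at 1 DPI and 0.75 at 3 DPI. Without the libraries that stood apart, the resting median was -0.15, with 11 of 51 members above 0, and no member was called. The genotype differences in the first-day and the 1 to 3 DPI change called 0 members by limma, against 0.0218% and 0% of all genes, with 0 and 3 at an unadjusted p under 0.05, against 4.32% and 4.53% of all genes. A missing call does not show that the genotypes are alike.

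At rest most members were lower in old than in young cells, and none was called. In old QSC 42 of 51 members were below young QSC and 9 above, with a median of -0.36 beside -0.04 over all genes. By limma 0 members were called, where 0.726% of all genes were, and 20 were lower and 0 higher at an unadjusted p under 0.05, against 8.54% and 5.51% of all genes. In 23 members, all lower in old cells, the young and old libraries did not overlap; of all genes 14.3% were lower and 7.43% higher without overlap. Nop2 stood at 194, 178 and 181 TPM in young and 85.8, 113 and 71.9 TPM in old QSC. Every old library was below every young one, and the difference was -1.05 (SE 0.24, limma adjusted p = 0.0594). Pes1 stood at 108, 97.2 and 95.8 and 38.3, 68.9 and 60.7 TPM, also without overlap, and differed by -0.87 (SE 0.22, limma adjusted p = 0.0788). Both passed the threshold without old QSC replicate 2, when they were the 2 members called. They also passed in the fit with no filter on low values, which carries little weight. The young and old table holds no value of 0, so that fit kept every identifier. It called 14 members lower, along with 25694 of all 55471 identifiers. Wdr43 was -0.59, Dkc1 -0.57, Bop1 -0.75, Wdr12 -0.52, Polr1a -0.71, Ncl -0.28 and Npm1 -0.26. Nop58 was 0.08 and Nop56 -0.10. Genes outside the rule stood likewise: 100 of 112 factors were below 0 with a median of -0.39, and 72 of 77 ribosomal protein genes with a median of -0.16, none of them called by limma. Old QSC replicate 1 had neutrophil markers summing to 4509 TPM, where the other old libraries had 25.5 and 30.8 TPM and young libraries 4.41 to 17.3 TPM, and macrophage markers were 102 to 389 TPM in old and 34.8 to 92.2 TPM in young QSC. Without that library the members' median was -0.24, beside -0.06 over all genes, with 9 of 51 members above 0.

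At 1 DPI most members were higher in old cells, by less than the resting difference, and none was called. In old cells 38 of 51 members were above young cells, with a median of 0.15 beside 0.01 over all genes, and 0 were called by limma, against 0.142% of all genes. At an unadjusted p under 0.05, 8 were higher and 0 lower, against 3.63% and 3.45% of all genes. In 12 members, all higher in old cells, the libraries had no overlap, beside 7.63% of all genes higher and 7.27% lower. Nop14 and Nolc1 had the smallest p, at 0.55 (SE 0.18, limma adjusted p = 0.379) and 0.32 (SE 0.11, limma adjusted p = 0.467). Nolc1 stood at 254, 262 and 282 TPM in young and 335, 327 and 332 TPM in old cells, so every old library was above every young one. Mitosis markers went the opposite way, at 900 to 1325 TPM in young and 174 to 509 TPM in old cells at 1 DPI, and their part was not tested.

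The test of whether the first-day change differs with age called 0 members by limma, against 0.0118% of all genes. The difference in change was above 0 in 46 of 51 members, with a median of 0.62 beside 0.06 over all genes, and 18 members had an unadjusted p under 0.05, all above 0, against 5.4% of all genes above 0 and 3.43% below. All 15 large subunit factors and 5 of 5 polymerase I subunits were above 0, as were 18 of 20 processome proteins. The smallest p belonged to Nolc1, at 0.64 (SE 0.16, limma adjusted p = 0.249). Wdr12 was 1.05 (SE 0.29, limma adjusted p = 0.31) and Pes1 1.13 (SE 0.31, limma adjusted p = 0.31). Among factors outside the rule 104 of 112 were above 0, with a median of 0.55. Without old QSC replicate 1 the members' median was 0.46, with 44 of 51 above 0. This interaction contains the resting difference above with its sign turned, since both use the same young and old QSC libraries.

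**Figure D5:**
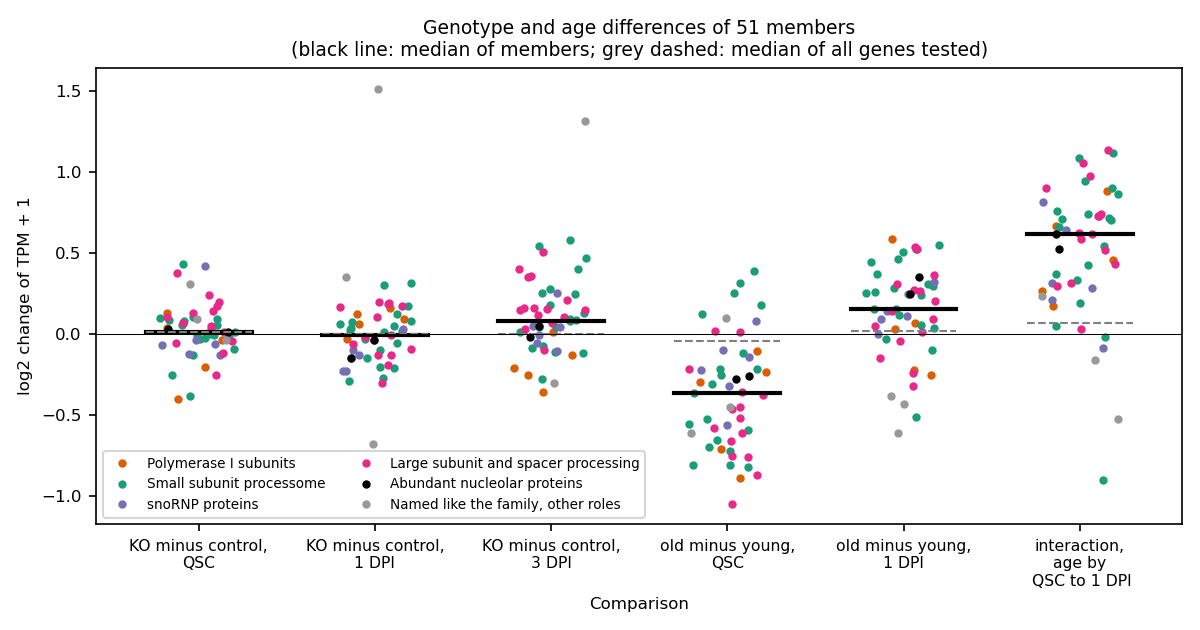
Genotype and age differences of the 51 members (points, 1 per member) on the log2(TPM + 1) scale, with the members' median in black and the median of all genes as a grey dashed line. Genotype medians are 0.01, -0.01 and 0.08; the age difference is centred at -0.36 at rest and 0.15 at 1 DPI, and the age difference in first-day change at 0.62.

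Genes whose course over libraries was most like the members' mean were looked for in each table. Over the 21 libraries of the first table these were Srp54c (Pearson r = 0.853), Mrto4 (0.852), Dimt1 (0.842), Eif3g (0.834) and Umps (0.826), and over the 15 libraries of the second table Hsd17b7 (0.946), Hnrnpf (0.930), Tbl3 (0.930), Heatr3 (0.928) and Ddx49 (0.927). Libraries within a group share their condition, so these r are descriptions. Within the first table, single members correlated with the members' mean from -0.05 for Nol4 to 0.90 for Ncl. That mean includes the member itself, which raises these r, so they do not compare with those of the genes above. Nop58 and Dkc1, which moved in opposite directions on the first day, had r of 0.45 and 0.34.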

How the data were processed

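RNA of sorted mouse satellite cells was measured in 36 libraries. The deposited tables hold TPM per Ensembl gene, which the authors estimated with RSEM 1.3.1 on GRCm38 after CASAVA 1.8.2 and cutadapt 1.7.1, per the submitters' processing notes. Neither the aligner nor the strand setting was given in the sources used here, and the labels name 2 library kits and 2 sequencing centres without saying which libraries used which, so kit or centre may coincide with a group compared. TPM keep no counts, so no count model or counting interval was possible. The young and old table holds no value of 0, and its values appear to carry a small floor and a gene-specific multiplier, so its levels were not compared between genes, and the 2 tables were fitted separately.

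Symbols came from the GRCm38 annotation (55144 of 55471 identifiers matched). Genes reaching 1 TPM in 3 or more libraries of a table were kept (18343 and 16949). Differences were taken on log2(TPM + 1), a scale that understates changes of low genes, and tested with limma 3.58.1 in R 4.3.3 (trended prior, all groups of a table sharing 1 spread, two-sided, Benjamini-Hochberg adjustment over all genes kept, threshold 0.05). The scripts were tested on simulated data. No 2 libraries held identical values. Shared sequence was found with BLAST 2.17.0 (at least 95% identity over 100 bases), and promoters came from RefSeq's table for GRCm38.p6.

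Full statistics are given for Fbl, Ncl, Npm1, Dkc1, Nop56, Nop58, Nolc1, Nop2, Polr1a, Polr1b, Pes1, Bop1, Wdr12, Wdr43 and Ddx21, for up to 6 called members of largest change per direction and for the 2 members of smallest p where none was called. Per gene list up to 3 genes of smallest p are named. The members, the gene lists and the tests were chosen with earlier results of these data known, and the immediate-early list and the fit without the libraries that stood apart were added after values were seen. Alternatives were a pseudocount of 0.1, no filter, median-of-ratios scaling, array weights, only the groups compared, the replicate number as a block and leaving out each library.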

Additional observations from a re-analysis of the deposited data

Results flagged for a closer look

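Among 48 tests of members in groups of 4 libraries, 5 found the highest or lowest library far from the other 3, where chance flags about 1 test in 20. Dkc1 stood at 473 TPM in control 1 DPI replicate 2, above the other 3 libraries. In knockout 1 DPI replicate 2, Npm1 at 1348 TPM and Nop58 at 661 TPM were below the other 3, and in that library the macrophage list summed to 8254 TPM. Npm1 stood at 1978 TPM in knockout 3 DPI replicate 1, and Nolc1 at 124 TPM in knockout 3 DPI replicate 2, each below the rest of its group. In 153 interaction tests of genotype or age by limma no member was called, with 0, 3 and 18 members at an unadjusted p under 0.05 in the 3 comparisons, which does not show that the changes are alike.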

How the results depend on the processing

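Median-of-ratios scaling moved most counts of members. It gave 9 members called higher and 16 lower in the control first-day step (median -0.29), 7 and 16 in knockout (-0.11), 2 and 18 in young (median -0.43, counts above) and 8 and 10 in old cells (0.12). Of all 18343 genes it called 3248 higher and 3727 lower in that control step, and 2943 and 3254 in the knockout step. It called 1 member higher from 1 to 3 DPI in control cells and 12 lower in old cells (-0.52), 5 higher in old cells at 3 DPI against rest, and gave a control median of -0.27 at 3 DPI against rest. Under it Ncl in the old first-day step turned to -0.065. Without the libraries that stood apart, the medians were 0.29 in control, 0.49 in knockout and 0.40 in old first-day steps, -0.49 and -0.41 from 1 to 3 DPI in control and knockout cells, and 0.46 for the age difference in first-day change. The knockout counts were then 5 lower on the first day and 0 higher and 18 lower from 1 to 3 DPI. Array weights gave 11 members higher in young cells and 1 and 0 higher from 1 to 3 DPI in control and knockout cells. Fitting only the groups compared gave 14 higher in young, 5 lower in knockout and 3 lower in old first-day steps, 1 higher in control and 0 higher and 4 lower in knockout cells from 1 to 3 DPI, and 5 higher in old cells at 3 DPI against rest. With no filter, the 1 to 3 DPI step in knockout cells had 0 higher and 5 lower. Old against young QSC then had 14 lower, in a fit that kept every identifier and carries little weight, as described above. Where no count of all genes stands beside a member count in this section, the member count cannot be set against a share. The cause of these changes in counts and medians was not tested.

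Replicate numbers did not pair the libraries: same-numbered libraries had correlations of deviations from -0.21 to 0.19, and 1 of 4 pairs between the 1 DPI groups was over 0.1. With the number as a replicate block, control cells had 1 member higher and 6 lower and knockout cells 0 higher from 1 to 3 DPI, and young cells 3 higher and 8 lower on the first day, with Nop58 no longer called there (limma adjusted p = 0.124). Old and young groups shared no numbers at rest, so no block could be fitted there.

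Leaving out each library in turn gave 13 to 17 higher and 8 to 10 lower in the control first-day step, with medians from -0.0089 to 0.23. The ranges were 11 to 17 and 6 to 10 in knockout, 4 to 7 and 9 to 13 in young (medians -0.10 to 0.010) and 20 to 22 and 3 to 6 in old cells (medians 0.36 to 0.60). From 1 to 3 DPI they were 0 to 1 and 2 to 11 in control, 0 to 1 and 4 to 14 in knockout (medians -0.41 to -0.18) and 22 to 32 lower in old cells. At 3 DPI against rest they were 7 to 10 and 14 to 18 in control (medians -0.12 to 0.058) and 6 to 11 and 15 to 20 in old cells. Old against young QSC had 0 to 2 lower, and the age difference in first-day change had medians of 0.46 to 0.64. A pseudocount of 0.1 moved no count of members by over 1.5 times.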

Other observations

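Of 15 RNA polymerase III subunits, 6 rose and 1 fell on the first day in control cells, 5 and 1 in knockout, 4 and 1 in young and 6 and 1 in old cells by limma; in control cells 23.3% of all genes were called higher and 12.6% lower. Polr3k rose by 2.82 in control cells (SE 0.35, limma adjusted p = 2.70e-06) and by 2.70, 2.61 and 3.10 in knockout, young and old cells, and Polr3c by 2.21, 1.96, 2.31 and 2.55. Of 11 genes of the Myc network, 4 rose and 2 fell in control cells: Mxd3, a Max partner that opposes Myc, rose by 3.14 (SE 0.34, limma adjusted p = 5.66e-07) and Mlx by 1.01.

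Of 18 immediate-early genes, a list added after values were seen, 2 rose and 6 fell on the first day in control cells, and 16 fell and 0 rose from 1 to 3 DPI by limma. Their summed level was 4377 to 5612 TPM in control QSC, 3512 to 4668 TPM at 1 DPI and 1086 to 1166 TPM at 3 DPI. In old cells 15 fell and 0 rose from 1 to 3 DPI, and the sum was 2719 to 4637 TPM at 1 DPI and 664 to 1002 TPM at 3 DPI. Their part in the members' levels was not tested.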
